A study of Mus musculus with 74 samples.

Results

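Heat shock proteins and molecular chaperones were examined in mouse L4 dorsal root ganglia (DRG) after injury. Members were the protein-coding genes whose symbols belong to the Hsp, Dnaja, Dnajb, Dnajc, Cct or Bag series (Bag1 to Bag6) and whose mean count over 8 whole DRG libraries was at least 10. This rule gave 82 of the 14793 protein-coding genes at that level, out of 53379 genes counted, and 88 symbols matched before the level was asked for. The rule used the mean over all mice and no contrast. The member nearest to the limit was Dnajc5b with a mean of 17.1 reads, and the nearest gene left out was Hspb9 with 7.625 reads. The 82 members comprised 11 HSP70 proteins, 3 HSP110 proteins, 3 HSP90 proteins, 6 small heat shock proteins, 2 mitochondrial chaperonin subunits, 7 subunits of the cytosolic chaperonin TRiC, 6 BAG proteins, J-proteins of class A (4), class B (11) and class C (27), and 2 others (Hspbp1 and Hspbap1). Cct6a, a further TRiC subunit, is not annotated as protein-coding in the gene set used and was therefore no member. Tcp1, also a TRiC subunit, has a symbol outside the rule and was followed outside the member list. The 7 TRiC members include Cct6b, which was nearly absent in FACS neurons.

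Whole L4 DRG came from female wild type C57BL/6 mice, 4 uninjured and 4 taken 1 day after spinal cord injury (SCI), with 1 library per mouse. The second set held YFP-positive neurons sorted by FACS from female Thy1YFP16 mice, in which the Thy1 promoter drives YFP in large-diameter neurons whose axons ascend the spinal cord. There were 6 naive mice, 4 mice each at 1d and 3d after sciatic nerve injury (SNI), and 4 each at 1d and 3d after SCI. Every mouse gave 3 wells of about 100 cells, which were summed. SNI was a crush of the sciatic nerve, and SCI was given in the labels as a dorsal hemisection at T9/10 and in the study's methods as a transverse cut of the dorsal column there, which cuts the central branch of these axons. The sorted cells had been dissociated with papain and collagenase, which whole DRG had not. Reads assigned to genes ranged from 21959030 to 44493319 among the whole DRG mice and from 30518187 to 83599972 among the FACS mice. All p-values measure the spread between mice as labelled.

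Some libraries stood apart. Uninjured replicate 1 was the lowest of its group in 49 of the 82 members and SCI 1d replicate 3 in 53. In FACS neurons, naive replicates 5 and 6, SNI 3d replicate 3 and SCI 3d replicate 3 stood apart from the rest of their groups. The sample titles tell the sets FACS and FACS2018 apart, and replicates 5 and 6 are the only naive mice of FACS2018. Fits without these mice compare injured mice of both sets with naive mice of the set FACS alone. In 20 of the 66 wells, from 14 mice, the summed level of 9 glial genes exceeded that of 4 neuronal genes. These wells are called glia-rich here. They numbered 6 of 18 in naive mice, 3 of 12 after SNI 1d, 4 of 12 after SNI 3d, 3 of 12 after SCI 1d and 4 of 12 after SCI 3d. The neuronal genes made up 2.67% of reads in the median other well and 0.0235% in the median glia-rich well, and the ranges of 0.907% to 3.35% and 0.00634% to 1.49% overlapped. Calls in FACS neurons are given with and without these wells.

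Chaperones bind unfolded or partly folded proteins and keep them from aggregating. HSP70 proteins do this in cycles of ATP hydrolysis: J-proteins deliver the client and start hydrolysis, and HSP110 and BAG proteins act as exchange factors that release it. HSP90 matures kinases and steroid receptors, TRiC folds actin and tubulin, small heat shock proteins hold clients without ATP, and Hspd1 with Hspe1 folds proteins in mitochondria. Heat shock factor 1 (Hsf1) induces the cytosolic set through heat shock elements in promoters, while the unfolded protein response induces the chaperones of the endoplasmic reticulum (ER), chiefly Hspa5 (BiP) and Hsp90b1 (GRP94), through ER stress elements. Hspb1 and Hspb8 are small heat shock proteins with known disease alleles in peripheral nerve.

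The promoter sequences that carry these elements are shown because they let the element be read beside the members' values. Most members with a window held no exact match to either element as searched here. A missing match does not show that a gene lacks the element. A RefSeq promoter window, from 250 bases before to 50 bases after the annotated start, was given for 66 of the 82 members (GRCm38.p6). The heat shock element was searched as GAANNTTCNNGAA, or TTCNNGAANNTTC on the other strand. It was found in 4 of the 66 members (6.06%) and in 179 of all 27025 genes with a window (0.662%). The matches are shown 5′ to 3′ on the strand of the gene, with the matched bases in capitals.
Hspd1: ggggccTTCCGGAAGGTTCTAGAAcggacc
Hspe1: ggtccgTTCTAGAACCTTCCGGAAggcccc
Dnajb6: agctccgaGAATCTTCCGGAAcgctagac
Hsph1: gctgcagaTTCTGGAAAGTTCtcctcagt

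Hspd1 and Hspe1 lie head to head, so their entries are the same 30 bases at chr1:55088053-55088082, read on the minus strand for Hspd1 and on the plus strand for Hspe1. The 18 matched bases hold 2 overlapping copies of the element and lie 144 to 127 bases before the start of Hspd1 and 89 to 72 before that of Hspe1. In Dnajb6 the element lies 46 to 34 bases before the start, at chr5:29735844-29735872 on the plus strand. In Hsph1 it lies just after the start, at chr5:149636280-149636308 on the minus strand. A match is a string of letters in a window and no measured binding.

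The ER stress element was searched as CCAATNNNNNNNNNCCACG, or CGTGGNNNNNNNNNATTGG on the other strand. It was found in 3 of the 66 members (4.55%) and in 37 of the 27025 genes (0.137%). All 3 encode proteins of the ER: Hspa5 and Hsp90b1, and Dnajc3, a J-protein of the ER lumen that also inhibits the kinase PERK.
Hspa5: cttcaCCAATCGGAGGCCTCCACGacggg
Hsp90b1 first site: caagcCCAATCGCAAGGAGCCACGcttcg
Hsp90b1 second site: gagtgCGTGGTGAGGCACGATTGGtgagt
Dnajc3: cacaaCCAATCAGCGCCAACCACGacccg

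The site of Hspa5 is at chr2:34772020-34772048 (plus strand), 65 to 47 bases before the RefSeq start. Those of Hsp90b1 are at chr10:86705633-86705661 and chr10:86705528-86705556 (minus strand), 212 to 194 and 107 to 89 bases before the start. That of Dnajc3 is at chr14:118937822-118937850 (plus strand), 105 to 87 bases before the start. Hspa5 gave the clearest difference between the 2 injuries in FACS neurons, described later, so the 250 bases before its RefSeq start (chr2:34771840-34772089, plus strand) are shown in full, again with the element in capitals.
Hspa5 promoter: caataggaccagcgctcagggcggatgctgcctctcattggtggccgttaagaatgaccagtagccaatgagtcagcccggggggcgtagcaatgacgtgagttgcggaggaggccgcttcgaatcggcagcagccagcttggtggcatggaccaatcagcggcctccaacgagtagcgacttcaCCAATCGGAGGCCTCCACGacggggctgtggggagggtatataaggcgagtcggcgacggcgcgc

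The order of the members by level was first asked for uninjured tissue. To compare genes, TMM-normalized read counts scaled to library size (CPM) were divided by the length of the union of exons in kilobases. In uninjured whole DRG the median member stood at 13.1 CPM per kb, with 8 of 82 members over 100 and 8 under 1. Hsp90ab1, the constitutive cytosolic HSP90, was the highest at a median of 422 CPM per kb (405 to 449 over 4 mice). Hspb8 followed at 226 (223 to 231), and the ranges of these 2 did not overlap with each other or with the next member. Bag1, an exchange factor for HSP70, had a median of 173 (148 to 177) and Hspa8, the constitutive HSP70, of 149 (129 to 161), so that the third and the fourth overlapped. The TRiC subunit Cct8 was the fifth at 111 (87.5 to 116) and was close to Cct5 at 108.

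In naive FACS neurons the order changed below Hsp90ab1, which stood at a median of 1001 CPM per kb (925 to 1309 over 6 mice). Cct5 followed at 230 (195 to 302), Hspa8 at 214 (113 to 286), Hspb8 at 164 (38.7 to 192) and Cct8 at 156 (57.3 to 177), and each of these 4 overlapped with its neighbour. The median member stood at 10.6 CPM per kb, with 5 members over 100 and 15 under 1. Without glia-rich wells the same 5 members led, Hsp90ab1 at 1111, Hspa8 at 249, Cct5 at 230, Cct8 at 176 and Hspb8 at 171 CPM per kb. All values that follow are CPM without division by length and are compared within a gene only.

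Whole DRG 1 day after SCI was compared with uninjured whole DRG to ask whether injury of the central branch changes chaperone transcripts in the ganglion. Of the 82 members, none rose and 2 fell at an adjusted p under 0.1: Hspa4l, an HSP110 exchange factor, and Hspa1b, a stress-inducible HSP70. The test was edgeR's quasi-likelihood test with Benjamini-Hochberg adjustment over all 17616 genes tested, of which 408 (2.32%) passed, 1.38% higher and 0.937% lower. Before adjustment, 14 members had p under 0.05, 6 higher and 8 lower, against 14.6% of all genes. The median log2 fold change was -0.03 over the members and 0.01 over all genes. In whole DRG, fewer cells of a type and less RNA per cell cannot be told apart.

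All 3 HSP110 exchange factors had negative log2 fold changes after SCI, and Hspa4l fell. Hspa4l (ENSMUSG00000025757.12, chromosome 3, 40744495 to 40796103 on GRCm38) stood at 320, 320, 348 and 353 CPM in uninjured mice and at 291, 271, 255 and 286 CPM after SCI. No SCI mouse reached the lowest uninjured mouse, and the log2 fold change was -0.28 (SE 0.066, adjusted p = 0.0783 in edgeR). Hspa4, its close relative, stood at 406, 403, 416 and 421 CPM in uninjured mice and at 363, 347, 338 and 372 CPM after SCI. Its groups were separate as well, with a log2 fold change of -0.21 (SE 0.056) that did not pass the test (adjusted p = 0.116 in edgeR). Hsph1, the heat-inducible member, stood at 84.2, 103, 123 and 128 CPM in uninjured mice and at 97.9, 82.6, 159 and 78.6 CPM after SCI. Its highest value was that of SCI replicate 3 and the groups overlapped fully (log2 fold change -0.06, SE 0.216).

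The near-identical stress-inducible HSP70 genes Hspa1a and Hspa1b went in opposite directions. Hspa1b (ENSMUSG00000090877.3, chromosome 17, 34956436 to 34959238) stood at 8.84, 6.44, 8.63 and 7.47 CPM in uninjured mice and at 5.58, 4.71, 5.88 and 5.58 CPM after SCI. The groups were separate and the log2 fold change was -0.52 (SE 0.127, adjusted p = 0.0913 in edgeR). Hspa1a (ENSMUSG00000091971.3, chromosome 17, 34969190 to 34972156) stood at 2.34, 2.57, 2.75 and 2.91 CPM in uninjured mice and at 3.26, 3.57, 3.45 and 3.28 CPM after SCI, separate the other way, with a log2 fold change of 0.36 that did not pass (adjusted p = 0.194). Reads from these copies can be assigned to either gene or dropped by the counting, so the single values are uncertain. Their sum does not depend on that assignment, though reads dropped as ambiguous are missing from it. The sum was 11.2, 9.0, 11.4 and 10.4 CPM in uninjured mice and 8.85, 8.28, 9.33 and 8.86 CPM after SCI. The means were 10.5 ± 1.08 and 8.83 ± 0.433 CPM (SD, n = 4 each), a difference of -1.66 CPM that did not reach 0.05 in an exact two-sided permutation test (p = 0.057, where the smallest possible is 0.0286).

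**Figure D1:**
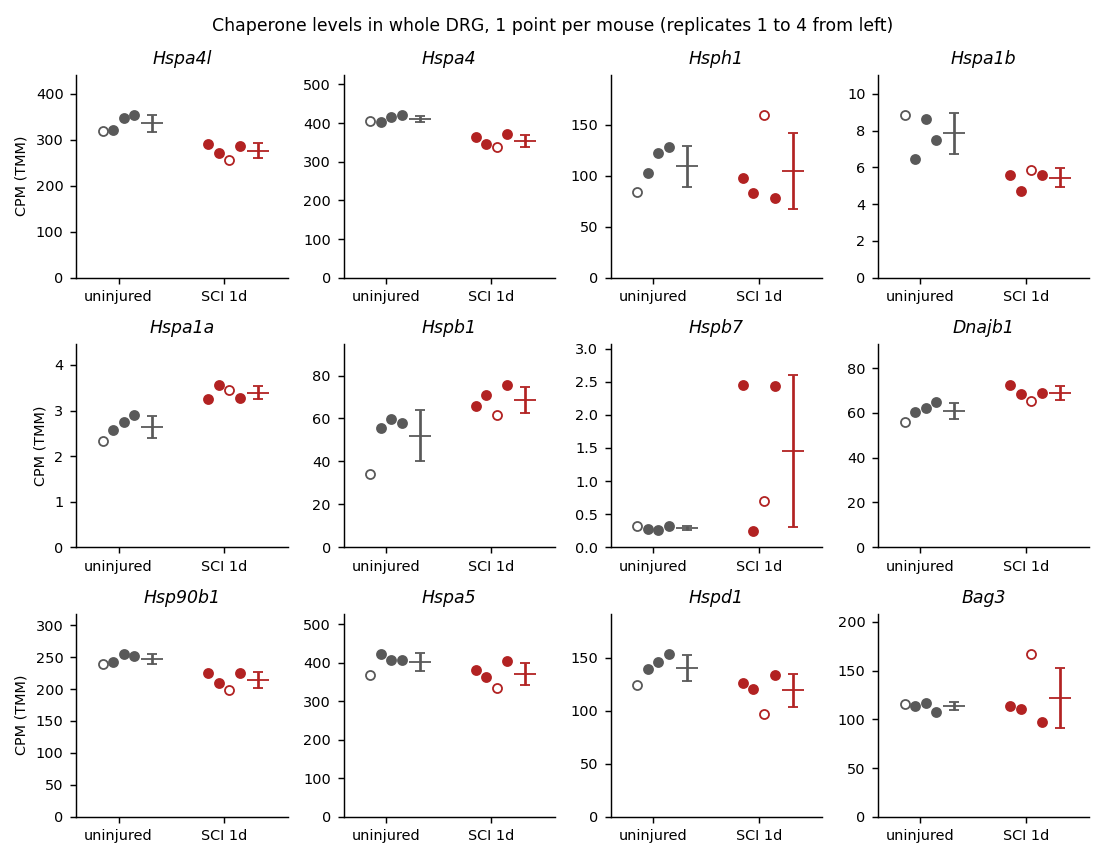
Levels of 12 named members in whole DRG, in CPM on the vertical axes, for 4 uninjured mice and 4 mice 1 day after SCI. Each point is a mouse, the bar beside the points is the mean with its SD, open points are the libraries that stood apart (uninjured replicate 1 and SCI replicate 3), and Hspa4l in SCI mice (255 to 291 CPM) lies below all uninjured mice (320 to 353 CPM).

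Of the other HSP70 and HSP90 proteins, none passed the test. Hspa8 had a log2 fold change of 0.07 and Hsp90aa1, the inducible cytosolic HSP90, of -0.18 (adjusted p = 0.435 in edgeR). All 3 HSP90 members had negative log2 fold changes, from -0.20 to -0.10. Among the stress-inducible list of 12 members, 3 were higher and 2 lower at an unadjusted p under 0.05, 1 passed after adjustment (Hspa1b), and the median was -0.06. Dnajb1, the J-protein most often used as a heat shock reporter, stood at 56.1, 60.6, 62.1 and 64.8 CPM in uninjured mice and at 72.6, 68.5, 65.5 and 69.1 CPM after SCI. Every SCI mouse lay above every uninjured mouse, but the log2 fold change of 0.18 did not pass (adjusted p = 0.250). The log2 fold changes of Dnaja1 (-0.07), Dnajb4 (-0.05) and Bag3 (0.11) were smaller than their standard errors, which were 0.130, 0.119 and 0.141.

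Of the 6 small heat shock proteins, 5 had positive log2 fold changes, with a median of 0.16, and none passed. Hspb1, which binds actin and intermediate filaments, stood at 34.2, 55.7, 59.5 and 58.0 CPM in uninjured mice and at 66.0, 70.8, 61.5 and 75.7 CPM after SCI. The groups were separate, with a log2 fold change of 0.40 (SE 0.154, adjusted p = 0.269). Hspb7, a small heat shock protein known mainly from heart, stood at 0.328, 0.270, 0.261 and 0.315 CPM in uninjured mice and at 2.46, 0.250, 0.695 and 2.43 CPM after SCI, from 7 to 12 reads and 7 to 73 reads per mouse. Only 2 of the 4 SCI mice were far above the uninjured mice, and the log2 fold change of 2.27 (SE 0.626) did not pass (adjusted p = 0.133).

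The ER chaperones did not pass the test in whole DRG. Of the list of 8, 3 were positive and 5 negative, with a median of -0.07. Hsp90b1 stood at 239, 242, 255 and 252 CPM in uninjured mice and at 225, 209, 199 and 225 CPM after SCI. These groups were separate (log2 fold change -0.20, adjusted p = 0.170 in edgeR). Hspa5 stood at 368, 422, 406 and 407 CPM in uninjured mice and at 381, 364, 335 and 404 CPM after SCI, with overlapping groups and a log2 fold change of -0.11 (adjusted p = 0.522). The log2 fold changes of the ER J-proteins were 0.10 for Dnajb9, -0.09 for Dnajb11, -0.08 for Dnajc3, 0.09 for Dnajc10 and 0.01 for Dnajc1, and that of the atypical HSP70 Hspa13 was -0.06.

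The mitochondrial chaperonin and TRiC had no called member in whole DRG. Hspd1 stood at 124, 139, 146 and 153 CPM in uninjured mice and at 126, 121, 96.7 and 134 CPM after SCI (log2 fold change -0.24, adjusted p = 0.318), with overlapping groups. Hspe1 had a log2 fold change of -0.12. All 7 TRiC subunits were above 0.05 before adjustment, with 3 positive and 4 negative log2 fold changes and a median of -0.0030. Dnajc6 (auxilin), which uncoats clathrin vesicles in neurons together with Hspa8, stood at 353, 326, 330 and 339 CPM in uninjured mice and at 289, 283, 281 and 318 CPM after SCI. Its groups were separate and its log2 fold change of -0.20 did not pass (adjusted p = 0.162).

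In all, 3 members had every SCI mouse above every uninjured mouse (Dnajb1, Hspb1 and Hspa1a), against 4.92% of all genes, and 9 had every SCI mouse below (Hspa4, Hspa4l, Hspa1b, Hsp90b1, Dnajc6, Dnajb2, Dnajc27, Dnajc11 and Dnaja4), against 6.07%. Without uninjured replicate 1 and SCI replicate 3, a choice made after the values were seen, 5 members rose and 8 fell, while 5.19% of all genes rose and 6.4% fell. Those that rose were Hspa2 (log2 fold change 0.29), Hspb1 (0.29), Hspb7 (2.57), Dnajb1 (0.16) and Dnajc12 (0.18). Those that fell were Hsph1 (-0.44, SE 0.089, adjusted p = 0.0154), Hspa1b (-0.51), Hspa4l (-0.27), Hspd1 (-0.21), Hspa4 (-0.20), Hsp90b1 (-0.19), Dnaja4 (-0.19) and Dnajc6 (-0.16). All 3 HSP110 proteins were among them, but the mice left out stood apart by their values in these same members. This fit is therefore no independent support for a pattern among them. For Hsph1 the mice left out were the lowest uninjured and the highest SCI mouse. With DESeq2 on all 8 mice, 1 member rose (Hspb7) and 5 fell (Hspa4l, Hspa4, Hspa1b, Hsp90b1 and Dnajc6), where 2.89% of all genes rose and 2.38% fell.

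The calls changed with single mice. Without any of uninjured replicates 2, 3 or 4, or without SCI replicates 1 or 4, no member passed, without uninjured replicate 1 or SCI replicate 2 there was 1, and without SCI replicate 3 there were 4. The log2 fold change of Hspa4l stayed between -0.30 and -0.24 and that of Hspa1b between -0.61 and -0.46 with each mouse left out. The 5 red blood cell genes took 0.00133% to 0.00208% of reads in uninjured mice and 0.00206% to 0.00900% after SCI, the 4 macrophage genes 0.00165% to 0.00235% and 0.00261% to 0.00276%, and the 9 glial genes 0.724% to 0.771% and 0.626% to 0.780%. None of these sums was at 0 in a whole DRG mouse, and the part of these cells in the values of the members was not tested.

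**Figure D2:**
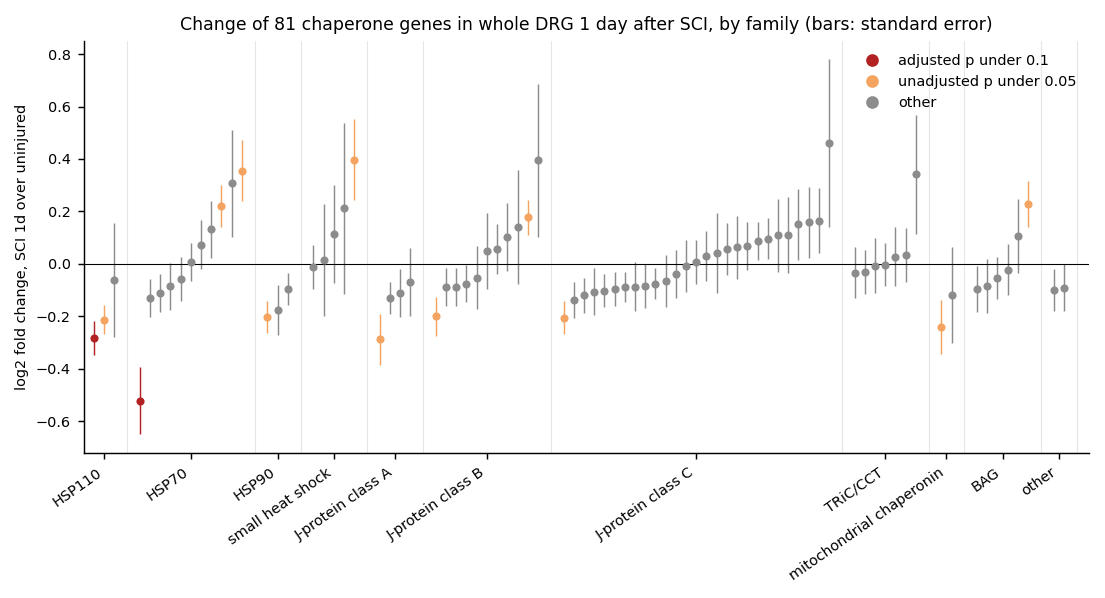
Log2 fold change of SCI 1d over uninjured whole DRG (vertical axis) with its standard error for 81 members, sorted within each family (horizontal axis), in dark red where the adjusted p was under 0.1, orange where the unadjusted p was under 0.05 and grey otherwise. Hspb7 (2.27) is left out for scale, and the called members Hspa4l and Hspa1b lie at -0.28 and -0.52.

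Outside the member list, 35 co-chaperones and regulators of the same pathways were followed, and 3 passed the test in whole DRG. Fkbp5, an HSP90 co-chaperone of steroid receptors and a known target of glucocorticoids, rose by 0.56 on the log2 scale (SE 0.103, adjusted p = 0.0358 in edgeR). Ahsa2, of the family of HSP90 ATPase activators, had a log2 fold change of -0.47 (SE 0.086, adjusted p = 0.0349), and Calr, the lectin chaperone calreticulin of the ER, of -0.39 (SE 0.091, adjusted p = 0.0780). Before adjustment, 1 of the 35 was higher and 7 were lower at p under 0.05.

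In FACS neurons, each injury and day was compared with naive neurons, and SNI with SCI, to ask whether the peripheral and the central injury differ in the neurons themselves. No member passed edgeR's test in any of these comparisons when all wells were used. The share of all 23507 genes that passed was 0.519% for SNI 1d, 0.442% for SNI 3d, 0.0468% for SCI 1d and 0.051% for SCI 3d, and no gene passed in the direct contrasts. At an unadjusted p under 0.05 there were 4 members for SNI 1d, 11 for SNI 3d, 4 for SCI 1d and 6 for SCI 3d, against 14%, 13.2%, 11.2% and 9.56% of all genes. In SNI against SCI there were 4 members at 1d and 6 at 3d, against 10.1% and 8.15%, and in 3d against 1d there were 6 after SNI and 4 after SCI, against 9.66% and 9.67%. With DESeq2 and the same factors, 2, 8, 1 and 3 members were called in the 4 comparisons with naive neurons in the same order, against 6.16%, 9.14%, 4.61% and 4.73% of all genes. The 2 after SNI 1d were Cct6b and Dnajb13, whose medians in naive mice were 0 CPM. In the direct contrasts DESeq2 called 2 members in SNI against SCI at 1d (Hspa5 and Dnajb13, with 4.67% of all genes) and 2 at 3d (3.63%). It called none in SNI 3d against SNI 1d (3.75%) and 1 in SCI 3d against SCI 1d (4.39%). The comparisons with naive neurons share the same 6 naive mice. The biological coefficient of variation was 1.19 in FACS neurons and 0.133 in whole DRG, so a lack of calls here does not show that levels were alike.

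Cytosolic HSP90 was the first member by p among those with reads in every mouse after SNI 1d. Hsp90aa1 stood at 154 CPM in the lowest, 255 in the median and 266 in the highest naive mouse, at 298, 314, 313 and 376 CPM after SNI 1d and at 385, 353, 210 and 371 CPM after SNI 3d. All SNI 1d mice lay above all naive mice, as did 3 of 4 SNI 3d mice. The log2 fold changes were 0.45 (SE 0.194, adjusted p = 0.307 in edgeR) and 0.52 (SE 0.194, adjusted p = 0.265). Every mouse was higher in 1.3% of all genes after SNI 1d.

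TRiC subunits had the smallest p after SNI 3d. Cct8 stood between 177 and 547 CPM in naive mice, with a median of 482, and at 647, 581, 890 and 725 CPM after SNI 3d. All SNI 3d mice were higher, which held for 0.961% of all genes, and the log2 fold change was 0.84 (SE 0.255, adjusted p = 0.187 in edgeR). Cct3 stood between 120 and 263 CPM in naive mice, with a median of 238, and at 352, 259, 580 and 464 CPM after SNI 3d, where 3 mice lay above the naive range. Its log2 fold change was 0.91 (SE 0.293, adjusted p = 0.214). Of the 7 TRiC subunits, 6 were positive after SNI 3d with a median of 0.46. Cct8 overlaps Usp16 on the other strand, and the strand setting of the counting is not given in the sources used here.

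The J-protein Dnajc21, which acts in ribosome assembly, stood between 20.8 and 30.3 CPM in naive mice, with a median of 24.8, and at 9.15, 15.3, 0.104 and 16.9 CPM after SNI 3d. All SNI 3d mice lay below the naive range, which held for 0.311% of all genes, and the value of 0.104 belonged to replicate 3, which stood apart. The log2 fold change was -2.72 (SE 0.972, adjusted p = 0.259). The remaining member with a small p after SNI at both days was the small heat shock protein Hspb6, with log2 fold changes of 1.37 and 1.85, but its naive values ran from 0.201 to 160 CPM. Without the 4 mice that stood apart these values were -0.0077 and -0.13.

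After SCI the members with the smallest p were in part others, while Hspb6 and Cct6b were among the first after SNI 1d too. Hspa5 stood at 283, 260, 293 and 229 CPM after SCI 1d, and between 312 and 545 CPM in naive mice, with a median of 391. All SCI 1d mice lay below the naive range, as in 0.213% of all genes, and the log2 fold change was -0.52 (SE 0.237, adjusted p = 0.420 in edgeR). Dnajc13, a J-protein of endosomes, had log2 fold changes of 1.16 after SCI 1d and -1.26 after SCI 3d. Hspb6 had 1.44 and Dnajc5, the synaptic vesicle J-protein CSPα, had -0.49 after SCI 1d. After SCI 3d, Dnajc11 of the mitochondrial membrane had 1.90, Bag4 had -1.92 and Hspa4 had 0.75. None of these passed after adjustment. Signs turned for Hspb6 after SCI 1d without the 4 mice that stood apart (-0.47), for Dnajc13 after SCI 1d without these mice and the glia-rich wells (-0.39) and for Dnajc13 after SCI 3d without the glia-rich wells (0.035). The TRiC subunit Cct6b and Dnajc5b also ranked among the first by p but were nearly absent: Cct6b had 0 to 2 reads in naive mice (4 of 6 at 0), 0 to 67 after SNI 1d, 1 to 167 after SCI 1d and 0 to 69 after SCI 3d, so that no fold is given.

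**Figure D3:**
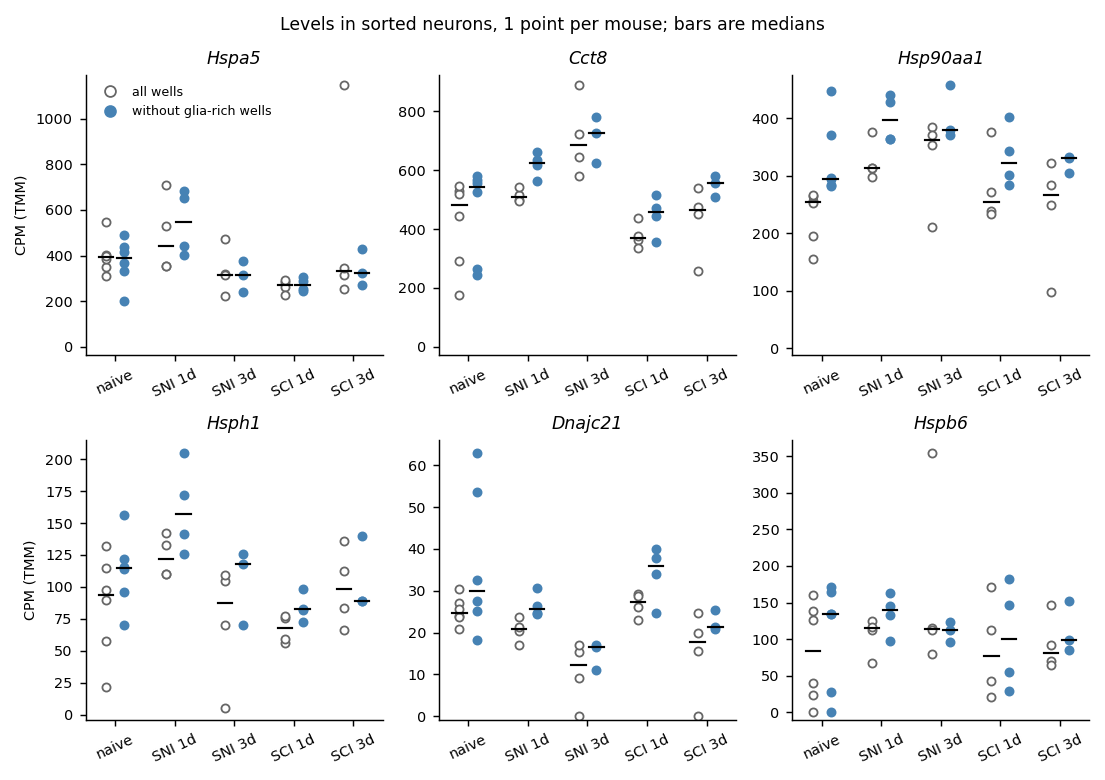
Levels of selected members in FACS neurons in CPM (vertical axes) for the 5 groups, with 1 point per mouse and bars at the medians, open for all wells and filled without glia-rich wells. Without these wells, Hspa5 lies at 404 to 684 CPM after SNI 1d and at 244 to 305 CPM after SCI 1d.

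Levels of many members differed between glia-rich and other wells. In the 12 mice with wells of both kinds, 16 of 82 members were higher in the other wells in all 12 mice, and no member was higher in the glia-rich wells in all 12. Over 18372 genes, these shares were 10.1% and 0.942%. The median level of Hsp90ab1 was 4029 CPM in the other wells and 1078 in glia-rich wells. Hspb8 had 345 and 2.04 CPM, and Bag3, its partner in the removal of misfolded proteins, had 177 and 2.66 CPM. Hsph1 had 110 and 0.788 CPM, Dnajc6 78.9 and 0.629 CPM and Hspb1 10.4 and 0.0627 CPM. Other members differed less between the wells or were higher in glia-rich ones. Cct5 had 769 CPM in the other wells and 497 in glia-rich wells, Hsp90b1 288 and 394 CPM, Dnajc7 208 and 360 CPM and Hspb2, a small heat shock protein of muscle, 1.88 and 47.3 CPM. Glia-rich wells were the higher ones for Hsp90b1 in 9, for Dnajc7 in 10 and for Hspb2 in 11 of the 12 mice. Dnajc7 overlaps Cnp on the other strand, which had a mean of 6787 reads in whole DRG against 3614 for Dnajc7. Hspb2 overlaps Cryab in the same way (1436 against 36.5 reads). The strand setting of the counting is not given, so reads of these neighbours may be counted under both members. These medians describe wells that were divided by their marker genes and carry no test.

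**Figure D4:**
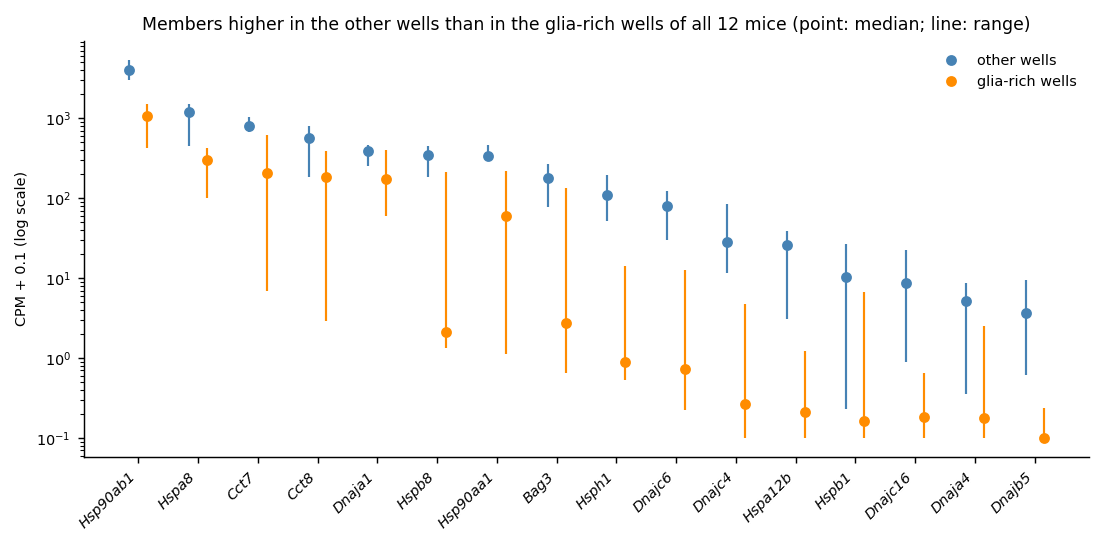
CPM plus 0.1 on a log scale (vertical axis) in the other wells (blue) and the glia-rich wells (orange) of the same 12 mice, for the 16 members that were higher in the other wells in all of them, where points are medians and lines ranges over mice. The medians of Hsp90ab1 were 4029 and 1078 CPM, and those of Hspb8 were 345 and 2.04 CPM.

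Leaving out the glia-rich wells left 20 mice, since 1 mouse each of SNI 3d and SCI 3d had no other well. Naive replicates 5 and 6 kept 1 well each, close to the rule's limit. Glial genes took 0.967% and 1.22% of reads in these wells and neuronal genes 0.997% and 1.42%. The medians over the naive wells kept were 0.497% and 2.77%. Hspa5 then separated the injuries at 1 day. Hspa5 stood at 654, 442, 684 and 404 CPM after SNI 1d and at 255, 290, 305 and 244 CPM after SCI 1d. Every SNI mouse lay above every SCI mouse, which held for 3.4% of all genes, and the direct contrast was 1.00 on the log2 scale (SE 0.201, adjusted p = 0.0492 in edgeR), where 0.796% of all genes passed. Naive mice ranged from 200 to 490 CPM with a median of 390 and overlapped with both. Against naive neurons, Hspa5 had a log2 fold change of 0.59 after SNI 1d (SE 0.181, adjusted p = 0.0908) and of -0.41 after SCI 1d (SE 0.185, adjusted p = 0.294).

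The size of the difference in Hspa5 was also read within each set of libraries that the sample titles tell apart. Since the groups were separate over all mice, the direction within a set was fixed beforehand. In the set titled FACS the means were 548 CPM after SNI 1d and 273 CPM after SCI 1d (log2 ratio 1.01, 2 mice each), and in the set titled FACS2018 they were 544 and 274 CPM (log2 ratio 0.99, 2 mice each). Without the 4 mice that stood apart, chosen after the values were seen, the contrast was 0.94 (SE 0.154, adjusted p = 0.0128), and with them left out and all wells used it was 0.84 (adjusted p = 0.0351, with 1.12% of all genes). None of these 4 mice was of SNI 1d or SCI 1d, so the mice compared stayed the same. Only what is estimated over all groups changed, such as the spread and the RUVr factors. With all wells and all mice the contrast was 0.86 and missed the threshold in edgeR (SE 0.257, adjusted p = 0.439), though the groups were separate there too. DESeq2 with the same factors called it on those data (0.82, adjusted p = 0.0364), where 4.67% of all genes were called. With all wells, Hspa5, Cct8 and Hsph1 had every SNI 1d mouse above every SCI 1d mouse, against 2.6% of all genes, and at 3d this held for Cct8 and Bag6, against 1.07%. By 3 days after SNI, Hspa5 stood at 374, 239 and 316 CPM. The contrast of SNI 3d with SNI 1d was -0.82 and did not pass (adjusted p = 0.643).

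Hsph1 and Cct8 were the next members in the contrast of SNI 1d with SCI 1d. Hsph1 stood at 141, 172, 205 and 126 CPM after SNI 1d and at 72.4, 98.5, 83.1 and 82.1 CPM after SCI 1d (log2 difference 0.94, SE 0.233, adjusted p = 0.102 in edgeR). Cct8 stood at 618, 634, 663 and 563 CPM after SNI 1d and at 517, 472, 444 and 358 CPM after SCI 1d (0.47, SE 0.146, adjusted p = 0.199). The groups were separate for both members, which fixes the direction within each set of libraries. The log2 ratios there were 0.88 and 1.00 for Hsph1 and 0.34 and 0.61 for Cct8. Without the 4 mice that stood apart both members passed, at 0.88 (adjusted p = 0.0800) and 0.44 (adjusted p = 0.0706), where 2.23% of all genes passed. Here too the SNI 1d and SCI 1d mice compared were the same, and only what is estimated over all groups changed. Of the partners, Calr (1.04, adjusted p = 0.0335) and the disulfide isomerase Pdia6 (0.94, adjusted p = 0.0539) passed in that fit. With the 4 mice included they did not pass (1.08, adjusted p = 0.105, and 0.92, adjusted p = 0.123). The ER list did not move one way in this contrast without glia-rich wells. Of its 8 members, 4 were positive and 4 negative, 1 was called (Hspa5) and the median was 0.05. Hsp90b1 had 0.34 (adjusted p = 0.378). Of the other ER proteins among the partners, the exchange factor Sil1 had -1.01 (adjusted p = 0.172) and P4hb, a disulfide isomerase, 0.75 (adjusted p = 0.196).

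Against naive neurons and without glia-rich wells, 4 members rose and none fell after SNI 1d, where 5.6% of all genes rose. They were Hspa5, Cct8 (0.42, SE 0.133, adjusted p = 0.0927), Hsp90aa1 (0.35, SE 0.114, adjusted p = 0.09999) and Cct6b, which was at or near 0 in naive mice. Dnajc6 and Hspb11 had every SNI 1d mouse below every naive mouse, as did 118 of 22620 genes. No member had every SNI 1d mouse above, against 410 genes. Of the 7 TRiC subunits, 6 were positive, 5 with an unadjusted p under 0.05 and 2 after adjustment, against 21.2% of all genes before adjustment, with a median of 0.40 where the median of all members was 0.10. Hsp90aa1 stood at 364, 364, 440 and 428 CPM after SNI 1d and between 282 and 447 CPM in naive mice, with a median of 295. The 2 highest naive mice were those that stood apart, and in the set of libraries they belong to the log2 ratio was 0.08, against 0.33 in the set titled FACS. Without the 4 mice, no naive mouse of the set titled FACS2018 was left, so injury and set could not be fully told apart in that fit. There, Hsp90aa1 passed after SNI 1d (0.45, adjusted p = 0.0643, with 3.28% of all genes) and SNI 3d (0.48, adjusted p = 0.0889, with 1.54%). Hspa5 (0.45, adjusted p = 0.168) and Cct8 (0.13, adjusted p = 0.590) did not pass against naive neurons after SNI 1d in it.

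After SNI 3d and without glia-rich wells, 2 members rose and 2 fell, where 4.16% of all genes rose and 0.822% fell. Cct8 stood at 780, 625 and 726 CPM and between 244 and 581 CPM in naive mice, with a median of 542 (log2 fold change 0.60, SE 0.144, adjusted p = 0.0450 in edgeR). Bag6, which handles tail-anchored membrane proteins, stood at 16.9, 20.2 and 13.6 CPM and between 0.346 and 12.99 CPM in naive mice (1.48, SE 0.390, adjusted p = 0.0624). Dnajc21 stood at 11.1, 16.5 and 16.9 CPM and between 18.2 and 62.9 CPM in naive mice (-1.07, SE 0.287, adjusted p = 0.0677). Hspb11, a component of intraflagellar transport that carries a heat shock name, stood at 10.8, 17.7 and 13.9 CPM and between 21.6 and 66.5 CPM in naive mice (-1.03, SE 0.310, adjusted p = 0.0913).

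All 4 had separate groups, which held upward for 3.75% and downward for 1.22% of all genes. The direction within each set of libraries follows from this. The sizes differed between sets: the log2 ratio of Cct8 was 0.33 in the set titled FACS and 1.51 in FACS2018, in which the naive mice are the 2 that stood apart and only 1 SNI 3d mouse was left. Cct8 was lower in glia-rich than in other wells (medians of 185 and 561 CPM). The part of glial reads left in those 2 naive mice in its calls was not tested. Without the 4 mice that stood apart, none of these 4 passed (Cct8 0.36 with adjusted p = 0.194, Bag6 0.92 with 0.330, Dnajc21 -0.78 with 0.177 and Hspb11 -0.83 with 0.216). After SCI, no member passed at either day without glia-rich wells, where 0.0354% of all genes passed at 1d and none at 3d in edgeR, and 12.3% had an unadjusted p under 0.05 at 3d. Of the partners, the HSP70 to HSP90 adaptor Stip1 rose after SNI 1d (0.57, SE 0.155, adjusted p = 0.0600), as did P4hb (0.81, adjusted p = 0.0473). After SNI 3d P4hb (0.74) and Hyou1, the HSP110 of the ER (1.95), rose and the small heat shock protein Cryab fell by 1.55 on the log2 scale.

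Naive FACS neurons were last compared with uninjured whole DRG, which asks how the chaperone set of the sorted neurons differs from that of the ganglion. Strain, dissociation, sorting and library kit all differ between these preparations and cannot be told apart from cell type. Over all wells, the glial genes took a median of 1.22% of reads in naive FACS mice (0.399% to 7.35%) and 0.739% in whole DRG. The medians of the neuronal genes were 2.38% and 1.22%, but naive replicates 5 and 6 had only 0.433% and 0.468%. Of 81 members tested, 23 were higher and 14 lower in FACS neurons, where 32.1% of 18205 genes passed, 17.7% higher and 14.4% lower. The split depended on the scaling: with library totals in place of TMM, 11 members were higher and 26 lower, against 10.5% and 23.4% of all genes, while the median log2 difference of all genes moved from 0.25 to -0.56. Without glia-rich wells, 22 members were higher and 16 lower, where 17.4% and 17.8% of 17860 genes were. The values that follow are under TMM and over all wells, with those under library totals or without glia-rich wells named where a call or a direction changed.

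Hsp90ab1 and 3 of the 7 TRiC subunits were higher in the neurons. Hsp90ab1 stood at 909, 900, 847 and 893 CPM in whole DRG, and at 3034 CPM in the lowest, 3428 in the median and 5244 in the highest naive FACS mouse (log2 difference 2.09, SE 0.238, adjusted p = 3.0e-04 in edgeR). Cct5 stood at 157, 212, 210 and 212 CPM in whole DRG, and between 608 and 1202 CPM with a median of 703 in FACS neurons (2.06, SE 0.297). Cct7 had a difference of 1.72 and Cct8 of 1.10, of which the latter did not pass with library totals (0.38, adjusted p = 0.527). Every FACS mouse lay above every whole DRG mouse for all 4, as for 21 members in all, against 14.1% of all genes, and 22 members had every FACS mouse below, against 22.8%.

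Among J-proteins, the class A member Dnaja1 stood at 72.2, 108, 105 and 113 CPM in whole DRG, and between 318 and 450 CPM with a median of 405 in FACS neurons (1.99, SE 0.253). Dnajc8, a J-protein found with the spliceosome, stood at 71.2, 77.3, 71.2 and 71.5 CPM in whole DRG, and between 238 and 488 CPM with a median of 248 in FACS neurons (2.00, SE 0.292). The groups of both were separate, and both passed with library totals (1.15 and 1.13).

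The cytosolic exchange factors Hspa4 and Bag1 were lower in the FACS neurons under both scalings. Hspa4 stood at 274, 287, 290 and 296 CPM in whole DRG, and between 17.6 and 89.4 CPM with a median of 50.4 in FACS neurons (-2.47, SE 0.376, adjusted p = 0.00117 in edgeR). Bag1 stood at 135, 167, 162 and 168 CPM in whole DRG, and between 12.5 and 52.4 CPM with a median of 36.1 in FACS neurons (-2.15, SE 0.382). The mitochondrial HSP70 Hspa9 had a difference of -1.49 and Dnajc3 of -1.60, and Cct6b was at 0 in 4 of 6 FACS mice.

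The remaining calls were named after their values were seen. Of the small heat shock proteins Hspb6 (5.70, SE 1.317), Hspb2 (5.63, SE 1.472) and Hspb11 (3.15, SE 0.619) were higher and none was lower, under both scalings. Hspb2 did not pass without glia-rich wells (1.65, SE 0.961, adjusted p = 0.231 in edgeR), where naive mice stood between 0.151 and 6.06 CPM, while Hspb6 (5.95) and Hspb11 (3.33) passed. Hspb6 stood at 1.52, 2.05, 1.72 and 1.99 CPM in whole DRG but between 0.269 and 185 CPM in FACS neurons, so that its groups overlapped. Hspb6 overlaps Lin37 and Hspb2 overlaps the lens and heart chaperone Cryab, which was higher as well (6.93). Of the HSP70 proteins, Hspa8 (1.27), Hspa14 (2.43) and Hspa5 (0.81) were higher and Hspa9 and Hspa12a lower, but with library totals Hspa8 did not pass and Hspa5 was at -0.08, and without glia-rich wells Hspa5 did not pass (0.52, adjusted p = 0.164). Hsp90b1 was higher (1.27) and did not pass with library totals (0.26). Class C J-proteins had 9 higher and 5 lower, and Bag6 was lower (-2.80).

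Of the 35 partners, 21 were higher and 4 lower, which became 11 and 9 with library totals and 22 and 5 without glia-rich wells. Those with the smallest p were the HSP90 co-chaperone Ptges3 (3.52), the HSP70 co-chaperone St13 (3.09), the mitochondrial exchange factor Grpel1 (2.76) and the prefoldin subunit Pfdn1 (2.77), which hands clients to TRiC, and these 4 were higher under both scalings. Stub1 (-2.69), Hyou1 (-3.58), Fkbp4 (-1.05) and Unc45a (-1.40) were lower.

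**Figure D5:**
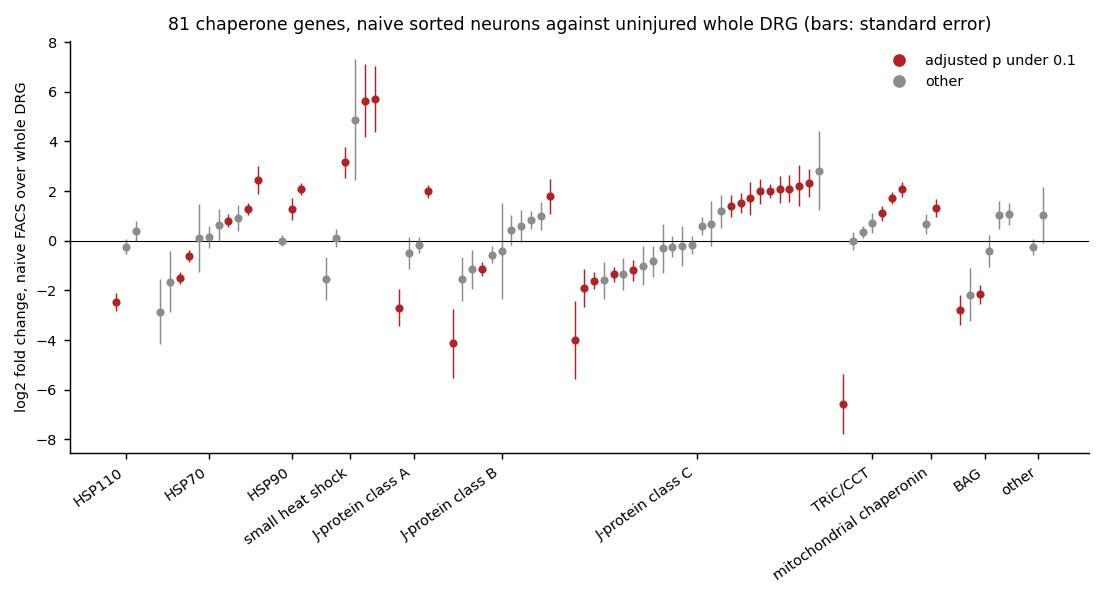
Log2 fold change of naive FACS neurons (6 mice) over uninjured whole DRG (4 mice) under TMM (vertical axis) with its standard error for 81 members, sorted within each family (horizontal axis), in dark red where the adjusted p was under 0.1. Hsp90ab1 lies at 2.09 and Hspa4 at -2.47, and the lowest point is Cct6b, whose value rests on FACS mice at 0.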

How the data were processed

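RNA-seq was read from 74 libraries: 8 of whole DRG and 66 FACS wells. The authors trimmed reads with cutadapt, aligned them to mm10 with STAR 2.5.3a and counted reads per gene with HTSeq 0.6.1, and the deposited count values are whole numbers without normalization for 53379 genes. The last 5 lines of each list, which name no gene, held 33.1% to 37.0% of the total in whole DRG and 42.6% to 66.9% in wells, and were left out. Deposited tables of the authors' own comparisons hold log2 fold changes, p-values and 123 columns of normalized values that match no sample here. They were not used, so whole DRG after SNI was not analysed here. The members and gene lists were chosen with earlier results of these data known.

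Symbols came from GENCODE M21. The 3 wells of a mouse were summed. Counts were tested with edgeR 4.0.16 (limma 3.58.1, R 4.3.3; quasi-likelihood F-test, TMM) at an adjusted p under 0.1 by Benjamini-Hochberg over all genes tested: a mean count of at least 10 in whole DRG (17616 genes) and in naive FACS against whole DRG (18205), and at least 20 reads in 1 mouse in FACS neurons (23507). The study removed FACS samples found as outliers by robust principal component analysis, but the labels do not name them, so the mice used here may include some that it left out. The FACS fit held all 22 mice and 2 RUVr factors from centred deviance residuals. CPM are TMM-normalized. No library pair was identical. Depth covers counting error only: the totals of the wells ran from 1494217 to 49015375 reads. Motifs were searched with Python 3.11.15 in RefSeq windows. Tables and figures used pandas 2.3.3 and matplotlib 3.10.9, and the exact permutation test scipy 1.17.1.

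The genes named are the called members, the 5 with the smallest p in each comparison of an injury with its controls, the stress-inducible and ER lists, the 5 highest per length, the 5 first in each direction in naive FACS against whole DRG, and called partners. Hspa2, Dnajc12, Dnaja4, Dnajb2, Dnajc27, Bag6, Hspb11 and members named from the wells were chosen after their values were seen. Alternatives were DESeq2 1.42.0 and its size factors, other filters, a threshold of 0.05, other covariates, the replicate block, naive mice of the same day, wells without the glia-rich ones and leaving out mice. Replicate numbers were not taken as pairs.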

Additional observations from a re-analysis of the deposited data

Results flagged for a closer look

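In groups of 4 or 6 mice, 4 of 63 groups examined had a mouse whose gap to the others was above Dixon's critical value, where chance flags about 1 in 20. In whole DRG these were Hspb1 in uninjured replicate 1 (34.2 CPM, group median 56.9) and Hspe1 in SCI 1d replicate 3 (20.5 CPM, median 29.3), the 2 libraries that stood apart. In FACS neurons they were Hspa5 in SCI 3d replicate 3 (1145 CPM, median 330) and Hspb6 in SNI 3d replicate 3 (355 CPM, median 114), which are also among the mice that stood apart.

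The effect of the 2 injuries on Hspa5 at 1 day differed by a direct test in some fits. Without glia-rich wells the contrast of SNI 1d with SCI 1d was 1.00 on the log2 scale (adjusted p = 0.0492 in edgeR), with every SNI mouse above every SCI mouse. With all wells and all mice it was 0.86 and did not pass in edgeR (adjusted p = 0.439), while DESeq2 called it (0.82, adjusted p = 0.0364).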

How the results depend on the processing

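Most values of named members kept their direction and side of the threshold: 1476 of the values recomputed did so, 42 came to pass the threshold, 17 no longer passed and 27 changed sign. In whole DRG, the 2 called members became 0 at a threshold of 0.05 and 0 with the replicate block, 6 with DESeq2, 13 without the 2 mice that stood apart (chosen after seeing the data) and 0 to 4 with each mouse left out, while all called genes ranged from 104 to 640. In FACS neurons, the count of 0 became 2 (SNI 1d), 8 (SNI 3d), 1 (SCI 1d), 3 (SCI 3d), 2 (SNI 1d against SCI 1d), 2 (SNI 3d against SCI 3d) and 1 (SCI 3d against SCI 1d) with DESeq2. Without glia-rich wells it became 4, 4 and, in SNI 1d against SCI 1d, 1. Without the 4 mice that stood apart (chosen after seeing the data) it became 1 in SNI 1d against SCI 1d, and with glia-rich wells left out too it became 1, 1 and 3. With each mouse left out, the count was 0 to 2 for SNI 3d (2 without naive replicate 5 and 1 without naive replicate 6) and 0 in the others, while all called genes ranged from 15 to 426 for SNI 1d, 9 to 710 for SNI 3d, 1 to 30 for SCI 1d and 0 to 39 for SCI 3d. With the replicate block, 127 genes were called in whole DRG and 0 in FACS neurons, with 0 members in each. With the block and without glia-rich wells (chosen after seeing the data), 27 genes rose, 28 fell and 0 members were called after SNI 1d, 4 rose, 1 fell and 0 members were called in SNI 1d against SCI 1d and no gene in the other FACS comparisons, and the Hspa5 contrast was 0.96 (adjusted p = 0.129 in edgeR). Taking numbers as pairs asked for a correlation of deviations over 0.1 in every pair, and 8 of 20 FACS pairs did not reach it (-0.0073 to 0.416, median 0.167), nor did 3 of 4 in whole DRG (-0.16 to 0.26). In naive FACS against whole DRG, 23 higher and 14 lower became 11 and 26 with library totals, and, by choices made after seeing the data, 19 and 9 at 0.05, 34 and 26 without naive mice 5 and 6, and 17 to 29 and 9 to 18 with each mouse left out.

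Reversed values were Bag3 in whole DRG (-0.073 without 2 mice), Hspb6 after SNI 1d (-0.0077 without 4 mice), SNI 3d (-0.13 without 4 mice, -0.19 without glia-rich wells too) and SCI 1d (-0.47 and -0.29), and Dnajc13 after SCI 1d (-0.39 without 4 mice and glia-rich wells) and SCI 3d (0.035 without glia-rich wells). With the block and without glia-rich wells they were Hspb6 after SNI 3d (-0.35), Cct8 (0.093) and Dnajc13 (-0.50) after SCI 1d and Dnajc11 after SCI 3d (-0.32). With each mouse left out, sign changes lay within -0.074 to 0.20 (Bag3), -0.18 to 0.019 (Dnaja1), -0.14 to 0.042 (Dnajb4), -0.030 to 0.064 (Dnajc1), -0.10 to 0.015 (Hspa13), -0.27 to 0.0045 (Hspe1) and -0.33 to 0.051 (Hsph1) in whole DRG, -0.081 to 1.91 (Hspb6 after SCI 1d) and -1.90 to 0.053 (Dnajc13 after SCI 3d) in FACS neurons. The cause was not tested.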
